A study of Homo sapiens with 4 samples.

Results

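MACC1, the receptor tyrosine kinases MET, EGFR, ERBB2, ERBB3, IGF1R, INSR and EPHA2, and the ERBB ligands AREG and EREG were followed in HT-29 cells with and without Myc-TRIM40. These 10 genes were taken by gene symbol from the deposited transcript tables, where they make up 10 of 27685 genes and 31 of 63714 transcripts. They were selected on pathway membership with the Myc-TRIM40 to control ratios of these same libraries in view, so their values are given as a description and without a test. HT-29 is a human colorectal adenocarcinoma line, grown here in RPMI with fetal bovine serum and no further treatment. The 4 libraries are 2 of control cells (genotype WT in the labels, which per the study's methods carry the empty vector) and 2 of TRIM40 overexpression cells, which stably expressed N-terminally Myc-tagged TRIM40 after viral transduction and puromycin selection. TRIM40 is a RING-type E3 ubiquitin ligase. Each of 2 independent experiments gave 1 control and 1 Myc-TRIM40 library. No source used here says whether the lines were single clones.

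Receptor tyrosine kinases bind a ligand outside the cell, dimerize, and pass the signal to the RAS-ERK and PI3K-AKT pathways. The ERBB receptors pair with each other, and ERBB3, whose own kinase is weak, signals through its partners. In the colonic epithelium AREG and EREG drive EGFR, HGF from stromal cells drives MET, and MACC1, described as a marker of metastasis in colon cancer, is known for activating transcription of the MET gene.

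The estimated counts of reads assigned to the listed transcripts summed to between 60954602 and 67424698 per library. No TRIM40 read was found in control cells (0 in both libraries), whereas Myc-TRIM40 cells had 272646 and 110665 in experiments 1 and 2, as the labels require. All 7 epithelial markers examined were expressed, with KRT8 between 3355 and 4435 FPKM (reads scaled to transcript length and library size). CDX2 was the lowest of them, between 1.22 and 1.39 FPKM. The summed level of 7 fibroblast markers was between 0.891 and 1.39 FPKM, that of 7 leukocyte markers between 8.80 and 15.5 FPKM, and that of 4 endothelial markers between 0.068 and 0.134 FPKM. Among the fibroblast markers COL1A2, COL3A1, DCN and PDGFRA were at 0 in every library, while COL1A1 had 123 to 352 reads, LUM 36 to 90 and PDGFRB 5 to 13. Among the leukocyte markers CD3D and CD3E were at 0 and PTPRC had 0 to 4 reads, while CD14 had 148 to 297, ITGAM 106 to 390 and CD68 751 to 1379. The log2 ratio of Myc-TRIM40 to control was 0.73 and 0.17 for CD68 in experiments 1 and 2, 0.94 and 0.14 for ITGAM, and 0.68 and -0.45 for CD14, and their part in the members' values was not tested. Among the endothelial markers CDH5 and KDR were at 0, VWF had 0 to 15 reads and PECAM1 17 to 31. The reads depended on transcript length in a way that differed between the control libraries. When the 14868 genes tested were divided into 10 equal bins of length, the median log2 ratio of control 2 to control 1 was 0.58 in the shortest bin and -0.83 in the longest.

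MACC1 was the one member that was higher in Myc-TRIM40 cells by at least 1.5-fold in both experiments on the scale of FPKM + 1, as 0.457% of all genes tested were. It is a gene with a single listed transcript of 9158 bases at chr7:20174279-20257013 (hg19). In experiment 1, control cells had 1306 MACC1 reads (2.28 FPKM) and Myc-TRIM40 cells 2844 (4.95 FPKM). In experiment 2, control cells had 148 (0.231 FPKM) and Myc-TRIM40 cells 1272 (2.16 FPKM). The Myc-TRIM40 library was the higher of the pair each time, but the conditions overlapped across experiments, since Myc-TRIM40 cells of experiment 2 were just below control cells of experiment 1. On read counts scaled to the library total with a correction for its composition (TMM-scaled CPM), the ratio was 2.12-fold in experiment 1 and 8.49-fold in experiment 2. Those values lay above 95.6% and 99.3% of all genes tested. The control libraries themselves differed by 9.18-fold for MACC1, more than Myc-TRIM40 and control cells did in either experiment.

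**Figure D1:**
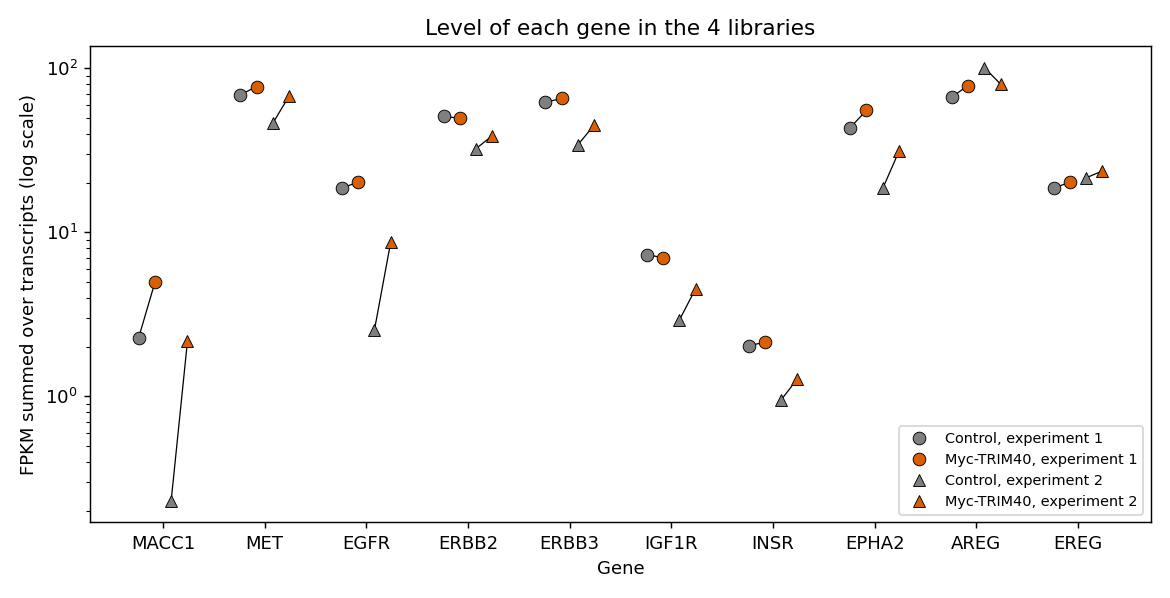
Level of the 10 genes in FPKM on a log axis, with grey points for control, orange points for Myc-TRIM40, circles for experiment 1, triangles for experiment 2 and a line joining the libraries of each experiment. MACC1 is higher at the Myc-TRIM40 end of both lines, with 4.95 against 2.28 and 2.16 against 0.231 FPKM, and the control of experiment 2 is the lowest point for each of the receptors.

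MET, the receptor of HGF, was among the most abundant members. It had 69.0 FPKM in control and 77.4 FPKM in Myc-TRIM40 cells of experiment 1, and 46.3 and 67.8 FPKM in experiment 2. The control of experiment 2 was the lowest library and the other 3 were closer together. The CPM ratio of Myc-TRIM40 to control was 1.12-fold and 1.34-fold, a smaller difference than that of MACC1 in both experiments.

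EGFR, the receptor of AREG and EREG, differed in experiment 2 far more than in experiment 1. It had 18.7 and 20.2 FPKM in control and Myc-TRIM40 cells of experiment 1, and 2.55 and 8.74 FPKM in experiment 2. Both libraries of experiment 2 were below both libraries of experiment 1. The CPM ratio was 1.07-fold in experiment 1 and 3.17-fold in experiment 2, and the control libraries differed by 5.26-fold.

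ERBB2, the ligandless partner of the other ERBB receptors, had 51.1 and 49.5 FPKM in control and Myc-TRIM40 cells of experiment 1 and 32.4 and 38.9 FPKM in experiment 2. ERBB3, the receptor of neuregulins, had 62.0 and 65.6 FPKM in experiment 1 and 34.1 and 45.1 FPKM in experiment 2. For both genes each library of experiment 2 was below each library of experiment 1, and the conditions overlapped. The log2 CPM ratios of ERBB2 were -0.08 and 0.13, of opposite sign in the 2 experiments, and those of ERBB3 were 0.05 and 0.33.

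IGF1R, the receptor of the insulin-like growth factors, had 7.32 and 7.0 FPKM in control and Myc-TRIM40 cells of experiment 1 and 2.92 and 4.54 FPKM in experiment 2. Its log2 CPM ratio was -0.10 in experiment 1 and 0.51 in experiment 2. INSR, the insulin receptor, was the lowest of the receptors, at 2.04 and 2.13 FPKM in experiment 1 and 0.951 and 1.28 FPKM in experiment 2. Like the ERBB receptors, both genes were lower in experiment 2 than in experiment 1 whatever the condition.

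EPHA2, a receptor of the ephrin-A ligands at cell contacts, was higher in Myc-TRIM40 cells in each experiment. It had 43.5 and 55.5 FPKM in experiment 1 and 18.5 and 31.2 FPKM in experiment 2. The CPM ratio was 1.25-fold and 1.55-fold, while the control libraries differed by 2.21-fold and the conditions overlapped.

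AREG and EREG, which are made as membrane-bound precursors and released by proteases, did not share the pattern of the receptors. AREG had 67.0 and 78.6 FPKM in control and Myc-TRIM40 cells of experiment 1, and 101.1 and 80.0 FPKM in experiment 2. It was higher with Myc-TRIM40 in the first experiment and lower in the second, with log2 CPM ratios of 0.20 and -0.46. EREG had 18.6 and 20.2 FPKM in experiment 1 and 21.5 and 23.7 FPKM in experiment 2. Its log2 CPM ratios were 0.09 and 0.01. Both ligands had a higher CPM in control 2 than in control 1, unlike the receptors. The log2 ratio of control 2 to control 1 was 0.68 for AREG, beside a median of 0.52 over all genes of its length bin. For EREG it was 0.30, beside a median of -0.29 in its bin. The part of length in these values was not tested.

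In order of FPKM, AREG, MET and ERBB3 held the first places in all 4 libraries, followed by ERBB2 and EPHA2, except that EREG was above EPHA2 in the control of experiment 2. IGF1R, MACC1 and INSR were the 3 lowest members in the other libraries, and in that control the lowest were EGFR, INSR and MACC1. Neighbours in the upper part of the order changed places between libraries, and their FPKM ranges overlapped. MACC1 ranked ninth in 3 libraries and last in the control of experiment 2.

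Across the 10 members, 8 were above 0 on the log2 CPM ratio in experiment 1 and 9 in experiment 2, against 50.2% and 52.0% of all genes tested. The members' median was 0.09 in experiment 1 and 0.38 in experiment 2, against 0.00 and 0.03 over all genes. Of the 10, 7 were above 0 in both experiments and ERBB2, IGF1R and AREG had opposite signs. The 7 receptors had a median of 0.05 in experiment 1, with 5 above 0, and 0.43 in experiment 2, with 7 above 0. All 7 receptors and MACC1 were lower in control 2 than in control 1, as were 49.6% of all genes tested. The receptors had a median log2 ratio of control 2 to control 1 of -1.01. Over all genes, the median of this ratio was -0.83 in the longest length bin, which holds MACC1, MET, IGF1R and INSR. It was -0.43 in the next bin, with EGFR and ERBB3, -0.29 in that of ERBB2 and -0.16 in that of EPHA2. The part of length in these values was not tested.

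**Figure D2:**
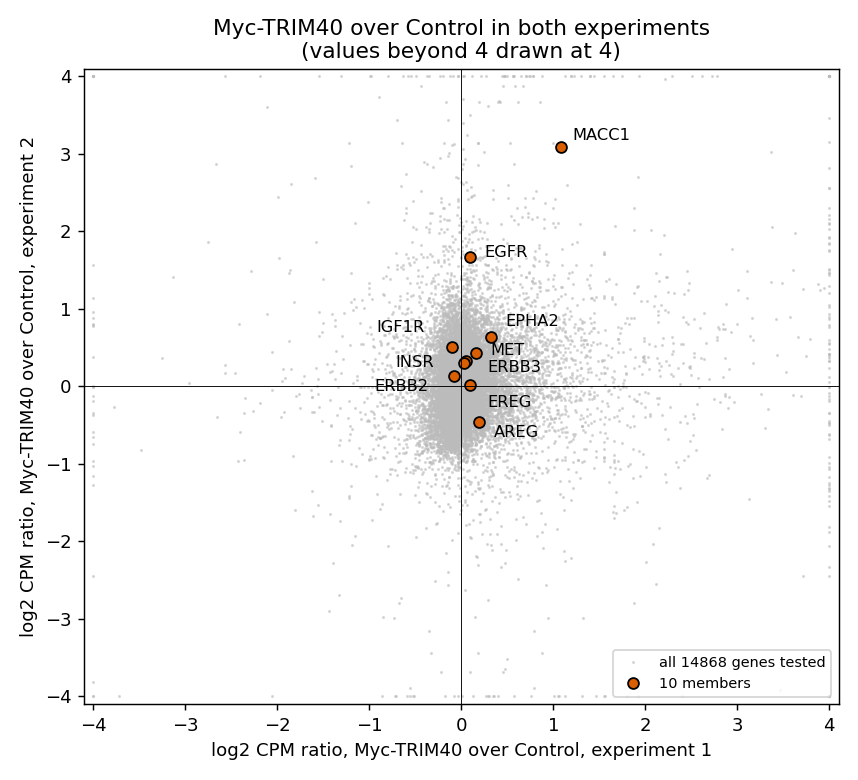
The log2 CPM ratio of Myc-TRIM40 to control in experiment 1 (x axis) and experiment 2 (y axis), with all 14868 genes tested in grey and the 10 members in orange. MACC1 stands at 1.08 and 3.09 and EGFR at 0.09 and 1.66, while the other members lie between -0.10 and 0.32 in experiment 1.

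The share of all genes that a rule called is given beside each count of members. On the ratio of FPKM + 1, at least 1.5-fold higher, 1 member passed in experiment 1 (MACC1, 1.82-fold), where 2.78% of genes passed. In experiment 2, 3 members passed (MACC1, EGFR and EPHA2), where 8.54% passed. In both experiments 1 member passed, MACC1, where 0.457% of genes passed. The rule used this contrast, so nothing is read from these shares. Adding 1 FPKM understates the change of a low gene, and MACC1 was 2.57-fold higher in experiment 2 on this scale. None of the 10 members had FPKM values that separated the conditions in all 4 libraries, while 21.7% of genes did.

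In edgeR's quasi-likelihood test with the experiment as a block and Benjamini-Hochberg adjustment, 9 genes, or 0.0605% of those tested, had an adjusted p under 0.05, and 0 of the 10 members did. Unadjusted, 675 genes (4.54%) were under 0.05, of which 2 were members, MACC1 and EGFR. DESeq2 called 54 genes, or 0.363%, with MACC1 among them. On log2(FPKM + 1) limma called 0.0202% of genes and no member. With no replicate block edgeR called 0 genes, or 0%, and no member, with 153 genes under 0.05 unadjusted. As the members were selected on this contrast, nothing is read from these counts. The fitted log2 fold change, given here as a size only, was 2.05 for MACC1 (SE 0.43), 0.87 for EGFR (SE 0.35), 0.48 for EPHA2 (SE 0.22) and 0.29 for MET (SE 0.20). It lay between -0.13 (AREG, SE 0.24) and 0.20 (IGF1R, SE 0.23) for the other 6. The fit had 1 residual degree of freedom, beside a median of 7.44 prior degrees of freedom drawn from all genes. Each SE was back-calculated from the F of this test, so it rests largely on the variance of other genes. It does not measure the spread between the 2 experiments. The log2 CPM ratios of the experiments had an SD of 1.42 for MACC1, 1.11 for EGFR, 0.22 for EPHA2 and 0.19 for MET.

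Most members have long transcripts, and length moved with the ratio in experiment 2. In that experiment the median log2 CPM ratio of all genes went from -0.54 in the shortest of 10 bins, of median length 719 bases, to 0.58 in the longest, of median length 7994 bases. In experiment 1 the same medians were -0.05 and 0.03. MACC1, MET, IGF1R and INSR are in the longest bin, EGFR and ERBB3 in the next, and AREG, with 1276 bases, in the second shortest. With the median of a gene's length bin subtracted, an alternative chosen after seeing the data, MACC1 had a log2 ratio of 1.05 in experiment 1 and 2.50 in experiment 2. On this scale EGFR had 0.07 and 1.29, and EPHA2 had 0.31 and 0.49. The 3 kept values above 0 in experiment 2, and the other 7 members were below 0 there, between -0.04 (AREG) and -0.29 (INSR). The median of the 10 in experiment 2 went from 0.38 to -0.06. Within its own length bin MACC1 was above 96.4% of genes in experiment 1 and above 99.2% in experiment 2, and EGFR above 61.7% and 96.9%. For MET the corresponding shares were 72.4% and 33.8%. Whether length itself bears on any single gene was not tested.

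**Figure D3:**
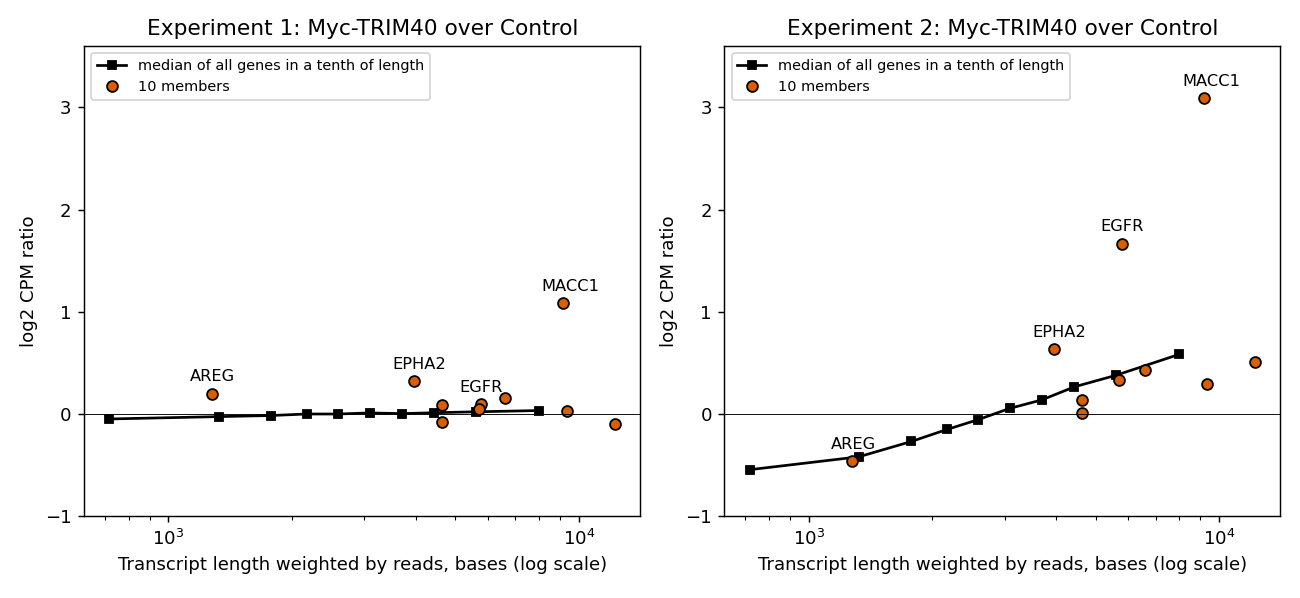
The log2 CPM ratio of Myc-TRIM40 to control against transcript length on a log axis, in experiment 1 (left) and experiment 2 (right), with black squares for the median of all genes in each of 10 length bins and orange points for the 10 members. The medians are nearly level in experiment 1 and run from -0.54 to 0.58 in experiment 2, where MACC1, EGFR and EPHA2 are above them and the other members on or below them.

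The deposited tables assign the reads of most members to several RefSeq transcripts, some of which differ by a short stretch. For INSR, MET and IGF1R that stretch is shown because the deposited lengths of the compared transcripts differ by exactly that many bases. Sequences are from the GENCODE 29 transcripts (GRCh38) that carry the same RefSeq entries, 5′ to 3′ on the gene's strand. Capitals mark the bases present in the longer transcript only, with 30 bases of shared sequence on each side.
INSR: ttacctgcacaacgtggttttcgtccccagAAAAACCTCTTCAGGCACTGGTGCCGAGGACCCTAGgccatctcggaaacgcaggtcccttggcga
MET: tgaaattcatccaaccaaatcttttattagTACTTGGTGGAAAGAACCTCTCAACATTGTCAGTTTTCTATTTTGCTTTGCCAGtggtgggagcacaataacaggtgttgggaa
IGF1R: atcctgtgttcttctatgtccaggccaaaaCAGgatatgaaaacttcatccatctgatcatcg

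The INSR stretch of 36 bases is the whole of exon 11, at chr19:7150497-7150532 on the minus strand (GRCh38). Exon 11 is known to separate the A form of the insulin receptor, which lacks it and binds IGF2 well, from the B form. In control cells of experiment 1 the transcript with exon 11 took 3 of 1190 reads, or 0.252% (95% Wilson interval 0.0858 to 0.739%). In control cells of experiment 2 it took all 618 reads, and the transcript without exon 11 took 0, which allows a share of up to 0.485% when the limit is set at 3 reads (0.618% as the upper Wilson limit). In Myc-TRIM40 cells it took 37.1% (34.5 to 39.8%) and 41.6% (38.2 to 45.2%). The control libraries thus lay at the opposite ends and the Myc-TRIM40 libraries between them. The intervals cover counting error only, and reads were divided between transcripts by the authors' assembler, not counted per exon.

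The IGF1R stretch is 3 bases at the start of exon 14, at chr15:98929558-98929560 on the plus strand (GRCh38). The transcript with it took 54.0% and 48.5% of reads in control and Myc-TRIM40 cells of experiment 1 and 89.2% and 77.7% in experiment 2, with 95% intervals of at most 1.37 percentage points on either side. The share was lower in Myc-TRIM40 cells in each pair, by less than the control libraries differed from each other. The MET stretch of 54 bases opens exon 10, at chr7:116759337-116759390 on the plus strand (GRCh38). The transcript with it took between 1.27% and 5.58% of MET reads, with the highest share in control cells of experiment 2, and the transcript without it took between 93.3% and 97.8%.

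EGFR reads were divided between a transcript of 6353 bases and shorter ones. The 6353-base transcript took 58.0% in control and 87.0% in Myc-TRIM40 cells of experiment 1, and 99.6% in each library of experiment 2. A transcript of 3979 bases took 38.9% in control cells of experiment 1 and 3.5% in Myc-TRIM40 cells there. Counting the 6353-base transcript alone, EGFR had 8.18 FPKM in control and 13.4 FPKM in Myc-TRIM40 cells of experiment 1. With MACC1 it then passed 1.5-fold in both experiments. The share of all genes passing on leading transcripts was not computed, and nothing is read from this count. Summed over its transcripts, EGFR had a CPM ratio of 1.07-fold in experiment 1. EPHA2 has transcripts of 3986 and 3918 bases, and the longer one took 71.8% and 82.5% of reads in experiment 1 and 57.2% and 78.5% in experiment 2, the higher share in Myc-TRIM40 cells each time. ERBB3 was assigned by at least 97.7% to 1 transcript, and the main transcript of ERBB2 took between 81.3% and 89.5%. MACC1 and EREG have a single listed transcript each.

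**Figure D4:**
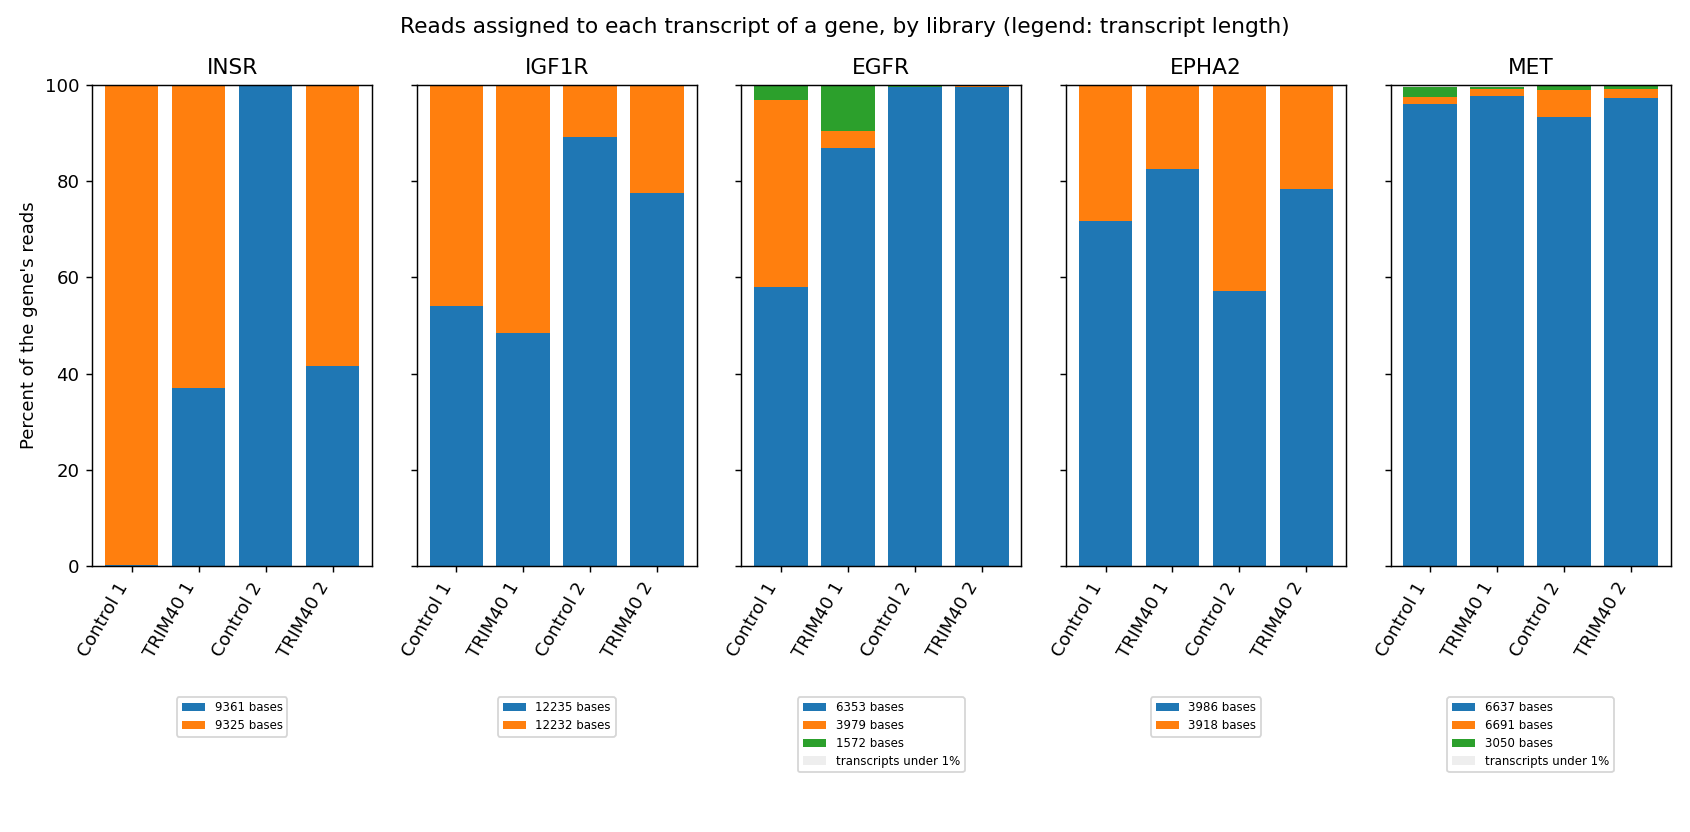
Percent of the reads of INSR, IGF1R, EGFR, EPHA2 and MET assigned to each transcript, named by its length in bases, in the 4 libraries. INSR goes from 0.252% to 100% of the 9361-base transcript between the control libraries, and MET stays at 93.3% or more of the 6637-base transcript.

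Some members share their locus with other genes. AREG is listed at 2 positions with the same transcript and length, chr4:75310815-75320726 and chr4:75480591-75490485 (hg19), and so as 2 copies. The first took between 53.4% and 55.7% of AREG reads. The copies' sequences were not compared, how reads were divided between them is uncertain, and their sum was used. ERBB2 overlaps MIEN1, which had 3219, 3109, 5603 and 3917 reads in control 1, Myc-TRIM40 1, control 2 and Myc-TRIM40 2. MACC1 overlaps LOC101927668, with 33, 12, 34 and 42 reads in the same order, against 148 to 2844 reads of MACC1. IGF1R overlaps IRAIN, with 20, 25, 70 and 41 reads. The antisense genes MACC1-AS1 and EGFR-AS1 had 0 reads in every library.

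The other genes of these pathways were taken from lists of 112 genes, of which 96 were expressed enough to be tested. None had an adjusted p under 0.05 in edgeR, and when p was not adjusted 3 of the 96 were higher (HBEGF, HPN and KSR1) and 0 lower, a share no larger than the 4.54% of all genes tested in either direction. DESeq2 and limma called 0 of the 96 as well. Their median log2 CPM ratio was 0.02 in experiment 1, with 52 (54.2%) above 0, and 0.23 in experiment 2, with 68 (70.8%) above 0. Of all genes tested, 50.2% and 52.0% were above 0, with medians of 0.00 and 0.03. These ratios were not corrected for transcript length, with which the median ratio of all genes rose in experiment 2.

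HBEGF, an ERBB ligand, had 2.03 and 5.39 FPKM in control and Myc-TRIM40 cells of experiment 1 and 2.53 and 3.22 FPKM in experiment 2. It was the highest of the 5 ligands tested besides AREG and EREG, with a fitted log2 fold change of 0.80 (SE 0.31), and NRG4, at 22 to 35 reads, was the lowest, with -0.18 (SE 0.58). Neither passed the adjusted test. NRG1 and NRG2, which bind ERBB3, NRG3, which binds ERBB4, and HGF, which binds MET, had 0 reads in every library. Among the genes around MET, HPN, a protease that can activate HGF, was near the limit of detection, with 4 reads in control and 30 in Myc-TRIM40 cells of experiment 1, and 0 and 15 in experiment 2. The protease inhibitor SPINT2 was the lowest there, with a fitted log2 fold change of -0.30 (SE 0.21).

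In the insulin and IGF axis the fitted log2 fold changes ran from -0.34 for the binding protein IGFBP2 (SE 0.23) to 0.50 for IGF2R (SE 0.25), the receptor that clears IGF2. Among Eph receptors and ephrins they ran from -0.27 for EFNA2 (SE 0.21) to 0.33 for EPHB2 (SE 0.25). Among sheddases and their helpers the ends were CNIH4, with -0.27 (SE 0.22), and the inactive rhomboid RHBDF2, with 0.23 (SE 0.21). None of these genes passed the adjusted test, with 0 of 9, 0 of 13 and 0 of 6 called in the 3 lists.

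Of the 19 genes of adaptors and the RAS-ERK cascade, 0 were called. The scaffold KSR1 had 1.55 and 1.86 FPKM in experiment 1 and 0.293 and 1.02 FPKM in experiment 2, so that, like EGFR, its control of experiment 2 was far below the other libraries. HRAS was at the other end, with a fitted log2 fold change of -0.42 (SE 0.23). Of the 15 genes of the PI3K-AKT branch, 4 were above 0 in experiment 1 and 13 in experiment 2, and 0 were called. Of all genes tested, 50.2% and 52.0% were above 0. Most genes of this branch are in the 2 longest length bins. Its median log2 CPM ratio in experiment 2 was 0.45, and all genes of those bins had medians of 0.38 and 0.58. The part of length in these counts was not tested. RPTOR, the mTORC1 subunit, had log2 CPM ratios of -0.05 and 0.94, and AKT1 had -0.51 and 0.12. Of 23 genes of receptor feedback and turnover, 14 were above 0 in experiment 1 and 18 in experiment 2, beside the same shares of all genes. Of these 23, 0 were called. The ERK phosphatase DUSP5 had 3.52 FPKM in control and 11.2 FPKM in Myc-TRIM40 cells of experiment 1, against 4.42 and 4.50 FPKM in experiment 2, and the ubiquitin ligase CBLC had a fitted log2 fold change of -0.17 (SE 0.21).

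**Figure D5:**
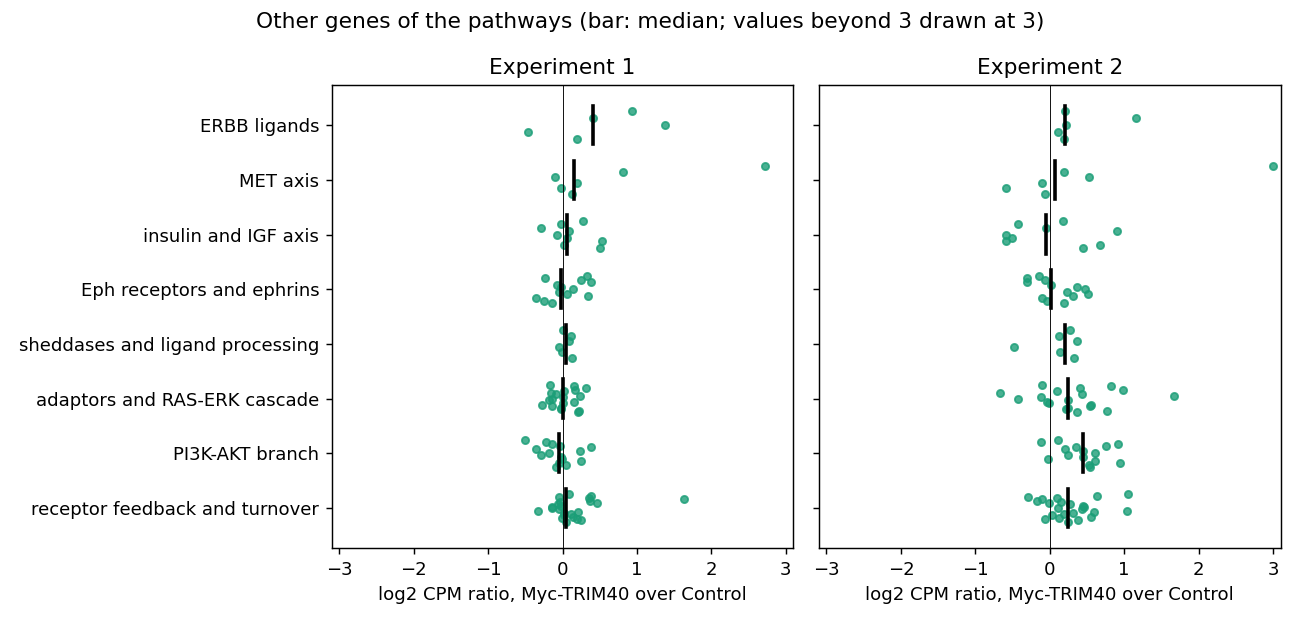
The log2 CPM ratio of Myc-TRIM40 to control for the 96 other pathway genes in 8 lists, in experiment 1 (left) and experiment 2 (right), with 1 point per gene and a bar at each list's median. Most points lie near 0 in experiment 1, and the PI3K-AKT branch has 4 of 15 genes above 0 in experiment 1 and 13 in experiment 2. Of all genes tested, 50.2% and 52.0% were above 0, and the ratios are not corrected for transcript length.

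The genes whose 4 values were most like those of MACC1 were LOC730234, FHAD1, SCART1, DNAH1 and ATP10D. Likeness was the Euclidean distance between log2 CPM values centred on each gene's mean, over 4 libraries, and was between 0.54 and 0.65. DNAH1, with 489, 812, 66 and 332 reads in control 1, Myc-TRIM40 1, control 2 and Myc-TRIM40 2, was the best measured of them, and in the other 4 genes the control of experiment 2 held between 2 and 6 reads.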

How the data were processed

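RNA-seq of HT-29 cells was analysed in 4 libraries, 2 per condition. Per the submitters' processing notes, HISAT2 2.1.0, StringTie 1.3.4d and the hg19 build were used, and the study's methods give a TruSeq Stranded mRNA kit. For every RefSeq transcript the authors deposited a whole-number estimated count, FPKM and, for experiment 2, TPM. The other deposited values used were transcript lengths in bases. TPM of experiment 1 was computed here from FPKM. Transcripts were summed per gene. Whether strand was used in counting is not given in the sources used here.

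Genes were tested with edgeR 4.0.16 in R 4.3.3 (glmQLFit and glmQLFTest, TMM, filterByExpr, 14868 genes), with the experiment as a block, since the libraries of each table share a replicate number. Same-numbered libraries deviated together with a correlation of 0.40. Within-experiment ratios used TMM-scaled CPM, or FPKM + 1 for the 1.5-fold rule. Lengths are means weighted by reads, in 10 equal bins of all genes tested. Alternatives were no block, DESeq2 1.42.0, limma 3.58.1, upper-quartile normalization, no filter, other pseudocounts, thresholds and units, the leading transcript, each experiment left out, and length taken out. On simulated counts for this comparison (14696 genes), edgeR found 127 of 200 changed genes, with 8 false calls over the whole simulated set. Of the 115 genes changed 4-fold it found 107, and the rest were changed by a smaller fold. The simulation had a fixed dispersion of 0.05 and no difference between experiments or by transcript length. These libraries had both, so it does not give the power of the real test. With 2 libraries per condition, the smallest two-sided p of an exact permutation test that ignores the pairing is 0.333. Nothing used here says that the experiments used separate transductions, so the spread measured is that between these libraries.

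The members and gene lists were chosen with earlier results of these data known. Genes named were the 10 members, TRIM40, the highest and lowest fitted gene of each pathway list and any called, genes overlapping a member with at least 10 reads, and the 5 genes nearest to MACC1. MACC1-AS1, EGFR-AS1, the ligands listed at 0 and the cell type markers named, KRT8 included, fall outside this rule and were chosen after their values were seen. Python 3.11.15 with pandas 2.3.3 and matplotlib 3.10.9 was used for the rest.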

Additional observations from a re-analysis of the deposited data

How the results depend on the processing

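With 2 experiments, no spread of a fold change within an experiment could be measured. Of all genes tested, 9 were called with the block. With no replicate block edgeR called 0 (153 at an unadjusted p under 0.05), with no filter 0 (447 unadjusted), limma on log2(FPKM + 1) called 3 and DESeq2 54. Same-numbered libraries were taken as paired, and 0 pathway genes were called with or without the block. Members higher by the 1.5-fold rule in both experiments numbered 1 (MACC1), 0 at a threshold of 2, 2 with the leading transcript only (MACC1 and EGFR), and between 1 and 3 with 1 experiment left out (without experiment 1: MACC1, EGFR and EPHA2). The share of all genes was not computed for the threshold of 2 or for the leading transcript. The causes of these differences were not tested. No member was lower by the 1.5-fold rule under any of these alternatives. The mean log2 fold change of MACC1 was between 1.08 and 3.09 and that of EGFR between 0.09 and 1.66 over all alternatives, with the ends given by 1 experiment alone. EPHA2 was between 0.32 and 0.67. The other 7 members changed sign under at least 1 alternative. For MET, ERBB3, INSR and EREG this was only with length taken out, the alternative chosen after seeing the data.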
